A study of Mus musculus with 6 samples.

Results

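The 10 genes described here encode transcription factors of the AP-1 and EGR families and a pair of immediate early response proteins: Fos, Fosb, Fosl2, Jun, Junb, Jund, Egr1, Egr2, Ier2 and Ier3. They were chosen by gene symbol, and 10 of the 56636 rows of the deposited expression table carry these names. RNA came from RAW264.7, a mouse macrophage-like cell line labelled as wild type, kept for 24 h with vehicle (3 libraries) or with an agent named only as 25-HC in the labels (3 libraries). All 6 libraries come from this 1 line, and neither the dose nor the vehicle's identity is given in the sources used here. The labels do not say whether the libraries of a group are separate cultures, so each p-value speaks only for the scatter of these libraries, and that scatter may be technical. By its title the series concerns cholesterol homeostasis and miR-9-5p from cancer cells, and the question put to these 10 genes is whether treatment altered their transcript levels.

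Immediate early genes are transcribed within minutes of a stimulus without new protein synthesis, mostly through MAP kinases that act on promoter-bound factors such as SRF, its ELK partners and CREB. FOS and JUN proteins pair through leucine zippers to form AP-1, while EGR proteins bind GC-rich DNA through zinc fingers. In macrophages these factors take part in the response to growth factors and bacterial products and in differentiation. Their mRNAs are mostly short-lived, so a level at 24 h describes the state at harvest and not the first response.

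The values are TPM, that is, abundance scaled for transcript length and then to the same total in every library, so levels can be compared between genes but the sequencing depth is unknown. The 25-HC libraries were close to each other and the vehicle libraries were not. Across the 12082 genes whose mean reached 1 TPM (the genes tested), Pearson's r of log2(TPM + 1) was 0.972 to 0.975 among 25-HC libraries and 0.807 to 0.938 among vehicle libraries (genes are not independent replicates). The median coefficient of variation of these genes was 58.4% in vehicle and 6.55% in 25-HC. Long transcripts were low in vehicle 1 and 2: relative to the 25-HC mean, the median log2 difference of the longest sixth of genes was -0.784 in vehicle 1, -1.63 in vehicle 2 and 0.039 in vehicle 3, and that of the shortest sixth 0.179, -0.051 and 0.051. Few long transcripts can be a sign of degraded RNA; RNA quality values were not analysed here, and its part in any difference between the groups was not tested. The summed level of the 10 macrophage markers examined was 1783 to 2670 TPM in vehicle and 2571 to 2584 TPM in 25-HC, with Mertk listed at 0 throughout. Of the 9 markers tested none was called. In 4 (44.4%) every 25-HC library lay above every vehicle library (separated upward), and 2 (22.2%) separated downward. Of all tested genes 22.6% and 8.1% did so. After median-ratio rescaling (1 factor per library) 2 (22.2%) separated upward and 3 (33.3%) downward, against 18.7% and 17.9% of all tested genes. Itgam was at 12.5, 0.53 and 51.0 TPM in vehicle and 62.4 to 71.4 TPM in 25-HC. Cx3cr1 was at 48.0 to 79.1 and 28.2 to 41.8 TPM. The part of these markers in the results below was not tested. Marker genes of neutrophil, lymphocyte, fibroblast and epithelial lineages summed to at most 4.65, 4.79, 0.76 and 0.30 TPM, with Camp, Cd3g, Pdgfra, Postn and Krt5 at 0 in every library.

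None of the 10 genes differed between 25-HC and vehicle by the limma test with Benjamini-Hochberg adjustment over all genes. Of the 10, 8 reached the mean of 1 TPM needed for testing, and Fosb and Egr1 did not. Adjusted p-values of the 8 ran from 0.39 to 0.795. Over all 12082 genes the test called 1 gene higher (0.00828%) and none lower (0%), with 994 (8.23%) and 356 (2.95%) at an unadjusted p under 0.05. Egr2 was the 1 member at that level, and it reached the mean of 1 TPM only through the vehicle libraries, where it was high. The exact permutation test of a single gene with 3 libraries against 3 cannot give a two-sided p below 0.1.

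In 7 of the 10 genes every 25-HC library lay between the lowest and the highest vehicle library, which was so for 39.8% of all tested genes. Ier2 was higher, and Egr2 lower, in every 25-HC library than in every vehicle library; 22.6% of tested genes separated upward and 8.1% downward. Vehicle 2 was the lowest library for 9 members, Egr2 being the exception, and for 73.2% of tested genes. Vehicle 3 was the highest library for 6 members (Fos, Fosb, Fosl2, Jun, Junb and Ier3), against 34.1% of tested genes. The plot of TPM by library shows these orders.

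**Figure D1:**
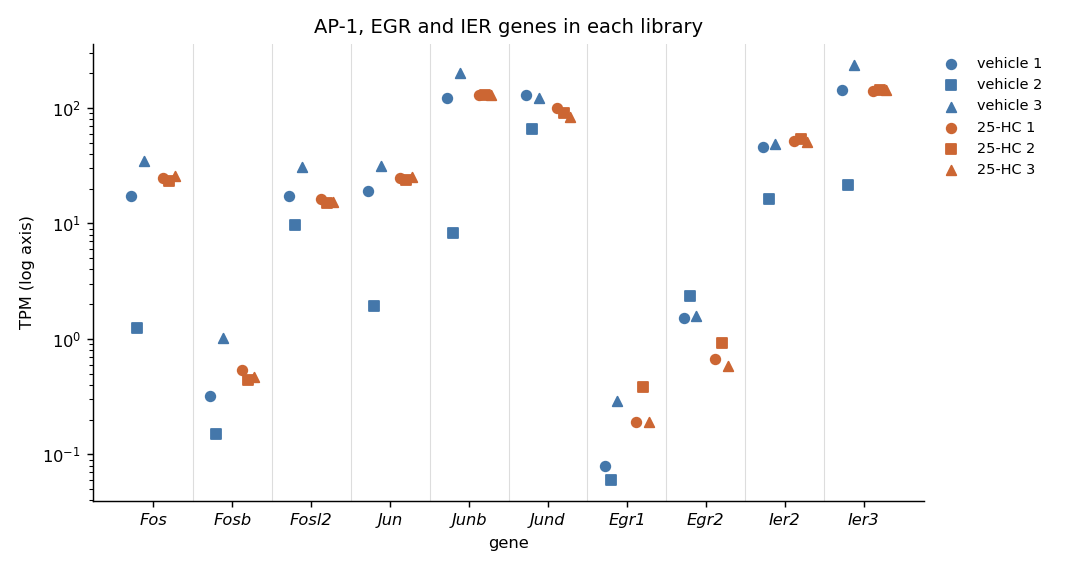
TPM (log axis) of the 10 genes, with vehicle libraries in blue and 25-HC libraries in orange and 1 point per library. The 25-HC points lie close together while vehicle 2 (square) falls far below for Fos, Jun, Junb and Ier3; for Egr2 the 3 vehicle points, 1.53 to 2.35 TPM, lie above the 3 treated ones, 0.58 to 0.92 TPM.

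Levels differed widely within the group. In 25-HC the order was Ier3 (142.2 ± 1.16 TPM), Junb (129.9 ± 0.870), Jund (90.6 ± 8.09), Ier2 (51.9 ± 1.43), Jun (24.6 ± 0.765), Fos (24.6 ± 1.20), Fosl2 (15.4 ± 0.642), Egr2 (0.723 ± 0.176), Fosb (0.483 ± 0.0513) and Egr1 (0.253 ± 0.110; SD, n = 3 each). Neighbours in that order did not overlap between libraries, other than Jun and Fos. By its mean over the 6 libraries Ier3 stood above 91.8% of tested genes, Fos above 64.1% and Egr2 above 3.94%. The order in vehicle 3 was the same from Ier3 to Ier2, and then Fos, Jun and Fosl2. In vehicle 2 Jund led, and Junb stood below Fosl2.

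Fos encodes the founding FOS protein, which needs a JUN partner to bind DNA. Its level was 17.4, 1.25 and 34.5 TPM in vehicle libraries 1, 2 and 3 against 24.5, 23.4 and 25.8 TPM in treated libraries 1, 2 and 3, the order used from here on. The treated libraries lay between vehicle 1 and vehicle 3, and vehicle 2 stood 27.6-fold below vehicle 3, where the median ratio over tested genes was 3.28. The ratio of group means was 1.39, and the log2 difference on log2(TPM + 1) was 1.17 (SE 0.986, limma adjusted p = 0.448, exact permutation p = 0.6). Its sign rests on vehicle 2: without that library the log2 difference was -7.9e-04 (adjusted p = 1).

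Jun encodes the central JUN protein, which pairs with itself or with FOS proteins. Its values followed those of Fos, with 19.0, 1.92 and 31.7 TPM in vehicle libraries against 24.5, 24.0 and 25.5 TPM in treated ones. Treated libraries again lay between vehicle 1 and 3. The log2 difference was 1.05 (SE 0.879, limma adjusted p = 0.445) and 0.0037 without vehicle 2. The Fos to Jun ratio was 0.917, 0.651 and 1.09 in vehicle and 1.0, 0.977 and 1.01 in 25-HC, so both transcripts were present at about the same level in every library but vehicle 2. An antisense gene, Junos, overlaps Jun in the annotation (GENCODE M21) and was at 0.89 to 1.71 TPM. The strand setting of the counting is not given in the sources used here, and reads of overlapping genes on opposite strands cannot be told apart without it.

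Junb, which tempers JUN activity and is abundant in myeloid cells, measured 121.9, 8.23 and 199.2 TPM in vehicle libraries against 130.4, 130.4 and 128.9 TPM in treated ones. Its coefficient of variation was 0.669% in treated libraries, the lowest of the 10, and 87.5% in vehicle. The log2 difference was 1.10 (SE 1.11, limma adjusted p = 0.507), and -0.26 without vehicle 2. Prdx2, a peroxiredoxin gene that overlaps Junb on the opposite strand, measured 291.4, 451.0 and 265.5 TPM in vehicle libraries against 233.6, 255.7 and 246.8 TPM in treated ones, highest in the library where Junb was lowest.

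Jund, the JUN gene with the steadiest expression in many cells, did not share that pattern. It measured 129.4, 66.1 and 122.6 TPM in vehicle libraries against 99.1, 89.7 and 83.0 TPM in treated ones. The treated libraries lay below vehicle 1 and 3 and above vehicle 2. Vehicle 3 exceeded vehicle 2 only 1.85-fold, against 24.2-fold for Junb and 16.5-fold for Jun. The log2 difference was -0.17 (SE 0.31, limma adjusted p = 0.706). Without vehicle 2 it was -0.47 with no overlap (limma adjusted p = 0.137), where 16.9% of tested genes separated downward. Without vehicle 1 it was 0.0043. The antisense gene Gm11175 overlaps Jund and was at 0 to 8.46 TPM.

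Fosl2, which encodes FRA2 and acts in macrophage and osteoclast differentiation, measured 17.2, 9.66 and 31.0 TPM in vehicle libraries against 16.1, 14.9 and 15.2 TPM in treated ones. Treated libraries were below vehicle 1 and 3 and above vehicle 2. The log2 difference was -0.16 (SE 0.432, limma adjusted p = 0.795). Its direction held without vehicle 2 (-0.55, limma adjusted p = 0.337), with no overlap, where 16.9% of tested genes separated downward. It turned to 0.24 without vehicle 3. Fosb, whose protein resembles FOS, was barely present, with 0.32, 0.15 and 1.01 TPM in vehicle libraries against 0.54, 0.44 and 0.47 TPM in treated ones, with overlap and no test.

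Because a share within 1 library does not depend on how that library was scaled, the make-up of the FOS and JUN transcripts was also computed (chosen after the values were seen). Of the summed TPM of Fos, Fosb and Fosl2, Fos made up 49.8%, 11.3% and 51.9% in vehicle and 59.5%, 60.4% and 62.2% in 25-HC. Fosl2 made up 49.3%, 87.3% and 46.5% in vehicle and 39.2%, 38.5% and 36.7% in 25-HC. Both shares separated between the groups, Fos upward and Fosl2 downward, each with an exact two-sided permutation p of 0.1, the smallest this design allows. As Fosb made up only 0.916% to 1.52%, these shares are nearly complements and are not separate results. The Fos to Fosl2 ratio, the same result in another form, was 1.01, 0.129 and 1.12 in vehicle and 1.52, 1.57 and 1.69 in 25-HC. The other ratios computed, Fos to Jun, Junb to Jun, Junb to Jund and Ier3 to Ier2, overlapped. How often shares or ratios of other genes separate was not computed. The separations here and for Jun below therefore have no background share beside them and are given as description only. Fosl2 has the longest transcript of the group (6537 bases against 2108 for Fos). After a correction for the trend with transcript length, the difference of Fos minus Fosl2 on the log2 scale was -0.34, -2.53 and 0.28 in vehicle and 0.77, 0.73 and 0.92 in 25-HC, without overlap. Before it, the difference was 0.02, -2.24 and 0.15 in vehicle and 0.58, 0.62 and 0.72 in 25-HC. Long transcripts were low in vehicle 1 and 2, so the correction moved these libraries further from 25-HC. For them it could not create overlap, so it is not a check on transcript length.

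Within the JUN genes, Jun made up 7.02%, 2.52% and 8.97% of the family's TPM in vehicle and 9.64%, 9.82% and 10.7% in 25-HC, separating upward (exact permutation p = 0.1). The log2 difference of Jun minus Jund overlapped, at -2.71, -4.52 and -1.92 in vehicle and -1.97, -1.86 and -1.67 in 25-HC, and did so after the length correction (-2.07 in vehicle 3 and -2.12 in 25-HC 1). The shares of Junb and Jund overlapped. Junb was at 45.1%, 10.8% and 56.4% in vehicle and 51.4%, 53.4% and 54.3% in 25-HC. Jund was at 47.9%, 86.7% and 34.7% in vehicle and 39.0%, 36.8% and 35.0% in 25-HC. Of the summed TPM of the 6 FOS and JUN genes in vehicle 2, Jund made up 75.7%, Fosl2 11.1% and Junb 9.43%, as the stacked plot shows. Other AP-1 family members are not part of these shares.

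**Figure D2:**
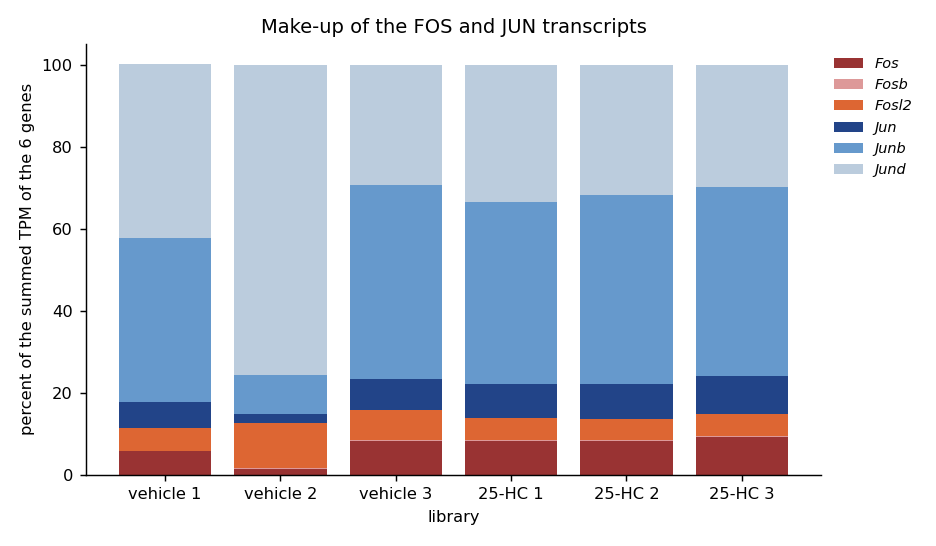
Percent of the summed TPM of Fos, Fosb, Fosl2, Jun, Junb and Jund that each gene makes up, 1 bar per library. Jund takes 75.7% in vehicle 2 and 29.2% to 42.4% in the other 5 libraries, while the 25-HC bars are alike.

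Egr2, a zinc finger factor of macrophage differentiation and activation, was the member that stood lower in 25-HC. It measured 1.53, 2.35 and 1.58 TPM in vehicle libraries against 0.67, 0.92 and 0.58 TPM in treated ones, so that all treated libraries lay below all vehicle libraries. The ratio of means was 0.397 (means of 1.82 ± 0.460 and 0.723 ± 0.176 TPM; SD, n = 3 each). The log2 difference was -0.70 (SE 0.249, unadjusted p = 0.0288, limma adjusted p = 0.39, exact permutation p = 0.1), lower in 3 of 3 treated libraries. Median-ratio rescaling, quantile normalization and the length correction could change the order of the libraries. After each of them the groups did not overlap, where 17.9%, 16.8% and 18.7% of tested genes separated downward. Values were divided by median-ratio factors of 0.973, 0.409 and 1.32 in vehicle and 1.24 to 1.26 in 25-HC. This raises vehicle 1 and 2 relative to 25-HC, and the length correction did so for Egr2 too. A gene already lower in 25-HC could thus hardly lose its separation, so these settings are a weak check. The other settings keep that order or leave libraries out, so they could not create overlap. The limma adjusted p stayed at or above 0.0718 in all settings where Egr2 was tested. Against vehicle 3 alone, the library nearest to the treated ones, the ratio was 0.458. Egr2 also ran against the rest of the group in vehicle 2, where it was highest. Its values are near the lower limit of measured genes. Egr1, the best-known EGR gene, was nearly absent at this time, with 0.08, 0.06 and 0.29 TPM in vehicle libraries against 0.19, 0.38 and 0.19 TPM in treated ones, with overlap and no test.

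Ier2, a nuclear protein gene of the immediate early class, measured 46.2, 16.4 and 48.3 TPM in vehicle libraries against 51.5, 53.5 and 50.7 TPM in treated ones. The groups did not overlap, but the treated mean was only 1.07-fold the level of vehicle 3. The log2 difference was 0.62 (SE 0.441, limma adjusted p = 0.408), near the median of 0.52 over all tested genes, and 0.0057 with overlap after median-ratio rescaling. Ier3, which affects survival and NF-kB and ERK signalling, measured 142.5, 21.4 and 236.4 TPM in vehicle libraries against 141.3, 143.5 and 141.7 TPM in treated ones. Treated libraries matched vehicle 1 (0.998-fold) and lay well below vehicle 3 (0.601-fold). Its log2 difference was 0.65 (SE 0.845, limma adjusted p = 0.596) and turned to -0.37 without vehicle 2.

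The members lay at different distances from the treated level in each vehicle library. In vehicle 2, relative to the 25-HC mean, Junb was at -3.83, Fos at -3.51, Jun at -3.13, Ier3 at -2.67 and Ier2 at -1.60 on the log2 scale, where the median of tested genes was -1.25. Jund, at -0.44, and Fosl2, at -0.62, lay above that median. By transcript length Ier3 (1131 bases) falls in the shortest sixth of tested genes, where the median in vehicle 2 was -0.051, Junb (1809 bases) and Fos (2108 bases) in the next sixth, where it was -0.983, and Jun (3189 bases) in the fourth, where it was -1.54. After the length correction vehicle 2 was at -2.82 for Junb, -2.35 for Fos, -2.19 for Ier3 and -1.69 for Jun. In vehicle 3, which lacked the length trend, Fosl2 was at 0.96, Ier3 at 0.73, Junb at 0.61 and Fos at 0.48 above the 25-HC mean, where the median of tested genes was 0.07. The part of transcript length, and of RNA quality, in these differences was not tested.

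**Figure D3:**
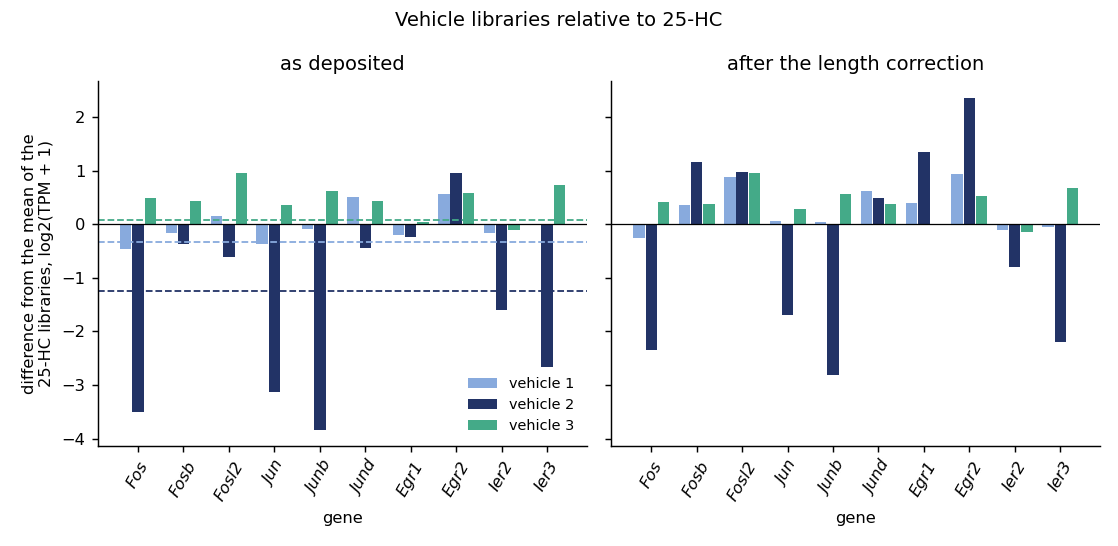
Difference of each vehicle library from the mean of the 25-HC libraries on the log2(TPM + 1) scale, as deposited (left) and after the length correction (right), with the median of tested genes in each vehicle library as dashed lines on the left. Vehicle 2 reaches -3.83 for Junb, while for Fosl2 and Jund all 3 vehicle bars are above 0 after the correction.

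The median log2 difference over all tested genes was 0.52, and was not subtracted from the differences above. It was 0.0083 after median-ratio rescaling (1 factor per library), 0.048 after quantile normalization and 0.0027 after the length correction. In these settings Fosl2 and Jund joined Egr2 in standing lower in every 25-HC library. Fosl2 had log2 differences of -0.75, -0.75 and -0.94 (limma adjusted p = 0.286, 0.197 and 0.0776) and Jund of -0.80, -0.42 and -0.49 (limma adjusted p = 0.297, 0.265 and 0.232). Fos was at 0.69, 0.63 and 0.73, and Jun at 0.53, 0.48 and 0.45, with overlap each time. Separation downward was then seen for 17.9%, 16.8% and 18.7% of tested genes, more than with the deposited scaling. The length correction also separated Fosb, but it shifts genes near 0 TPM by more than their own level.

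**Figure D4:**
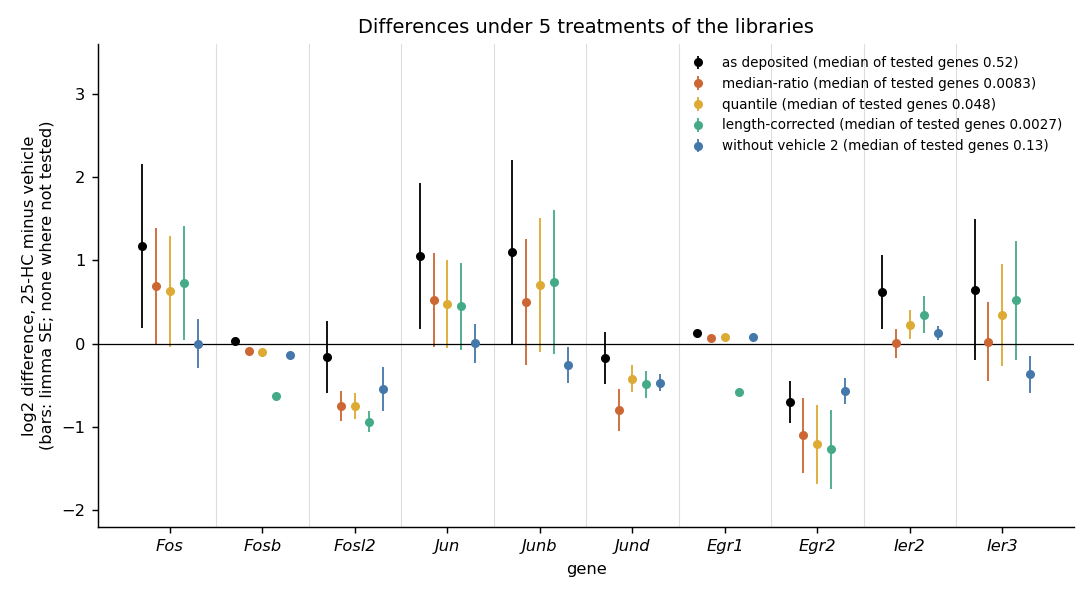
Log2 difference of 25-HC minus vehicle for each gene under 5 treatments of the libraries, with bars for limma's SE where the gene was tested. Fosl2, Jund and Egr2 lie below 0 in all 5, and Fos moves from 1.17 as deposited to about 0 without vehicle 2.

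Against vehicle 3 alone, 9 of the 10 genes had a lower mean in 25-HC, where 58.1% of tested genes did so, and 8 lay below vehicle 3 in all treated libraries, where 45.7% did so. Ratios of the treated mean to vehicle 3 were 0.498 for Fosl2, 0.601 for Ier3, 0.652 for Junb, 0.712 for Fos, 0.739 for Jund and 0.777 for Jun, with a median of 0.95 over tested genes. Vehicle 3 was already the highest library for 6 of these genes. These values set treated cells beside 1 vehicle library, so they are given without a test and say nothing of the spread among vehicle cultures.

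The genes share a simple structure that the choice by name did not use. In GENCODE M21 (matched by identifier) the longest transcript has 1 exon in Jun, Junb, Jund and Ier2, 2 exons in Egr1, Egr2 and Ier3, and 4 in the 3 FOS genes. At most 2 exons were found in 18.9% of tested genes, whose median was 7. Transcript GC content was 51.4% to 67.2%, with a median of 55.8% against 50% for tested genes.

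Promoters were compared because Fos and Jun were at like levels in most libraries while Egr2 and, in 25-HC, Fosl2 stood lower. In vehicle 1 and 3 Fosl2 was near Fos (Fos to Fosl2 ratios of 1.01 and 1.12). In vehicle 2 both Fosl2 and Egr2 stood above Fos and Jun. RefSeq windows of the 250 bases before the annotated start (build GRCm38.p6, whereas the expression table was made with GRCm39) were given for 8 of the 10 genes, not for Egr1 and Ier2. The windows shown are chr12:85473640-85473889 (plus strand) for Fos, chr4:95052223-95052472 (minus strand) for Jun, chr5:32136222-32136471 (plus strand) for Fosl2 and chr10:67535249-67535498 (plus strand) for the most upstream of 5 starts of Egr2. Each is written 5′ to 3′ in the direction of the gene, and capitals mark every match on either strand to the motifs named after the sequences.
Fos: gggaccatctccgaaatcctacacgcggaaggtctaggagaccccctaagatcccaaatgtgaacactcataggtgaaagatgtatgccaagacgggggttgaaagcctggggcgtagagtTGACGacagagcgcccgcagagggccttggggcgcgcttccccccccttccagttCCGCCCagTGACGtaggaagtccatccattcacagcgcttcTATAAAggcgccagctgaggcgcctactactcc
Jun: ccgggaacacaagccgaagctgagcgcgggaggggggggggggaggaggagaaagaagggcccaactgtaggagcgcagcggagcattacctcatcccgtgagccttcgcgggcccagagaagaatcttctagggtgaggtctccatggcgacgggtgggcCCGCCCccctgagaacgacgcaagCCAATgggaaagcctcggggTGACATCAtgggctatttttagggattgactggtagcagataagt
Fosl2: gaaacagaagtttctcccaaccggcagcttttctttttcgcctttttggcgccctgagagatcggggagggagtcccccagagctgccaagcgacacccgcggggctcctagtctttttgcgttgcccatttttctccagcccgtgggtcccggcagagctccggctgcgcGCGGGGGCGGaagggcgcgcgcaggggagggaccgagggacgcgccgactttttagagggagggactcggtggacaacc
Egr2: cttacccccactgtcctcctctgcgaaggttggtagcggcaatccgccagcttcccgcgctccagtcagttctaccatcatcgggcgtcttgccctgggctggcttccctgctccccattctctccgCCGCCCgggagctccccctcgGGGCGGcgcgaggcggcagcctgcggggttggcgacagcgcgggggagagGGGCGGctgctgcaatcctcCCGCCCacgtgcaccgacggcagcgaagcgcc

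Counting back from the base before the start as -1, Fos holds the CRE core TGACG at -129 and -66 and the TATA box TATAAA at -33. The core was in 3 of the 8 windows (Fos, Fosb and Junb) and in 17.8% of all 32851 windows in the table, and the TATA box in 1 of 8 and 12.4%. Jun holds TGACATCA, a variant AP-1 site, at -45, found in 1 of 8 and 2.93%. Fosl2 and Fosb hold the EGR site GCGNGGGCG (at -79 and -50), found in 2 of 8 and 4.7%; in both it overlaps a GC box, GGGCGG. GC boxes were in 6 of 8 windows, 4 of them in that of Egr2, and in 32.7% of all, and the CCAAT box CCAAT in 3 of 8 and 33.8%. The AP-1 site TGACTCA (4.46% of all windows), the CRE TGACGTCA (1.55%), the STAT site TTCCNGGAA (0.913%) and the CArG box (1.47%) were in none of the 8. These are matches of letters and not measured binding. Only these 250 bases were searched, so a site absent here may lie outside them, and Egr1 and Ier2 were not examined.

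The other genes of the pathway were read from 5 lists, and none of their genes passed the test. Of 11 other AP-1 family members, 10 were tested, 9 had a positive log2 difference, 4 separated upward and none downward (3 and 1 after median-ratio rescaling). Of all tested genes 75.4% had a positive difference, 22.6% separated upward and 8.1% downward (50.4%, 18.7% and 17.9% after rescaling). The shares of the list were 90.0%, 40.0% and 0%, with 30.0% separated upward and 10.0% downward after rescaling. Batf, a partner of JUN proteins in immune cells, measured 12.4, 4.81 and 11.6 TPM in vehicle libraries against 18.6, 18.7 and 20.0 TPM in treated ones (limma adjusted p = 0.39). Atf2, which pairs with JUN, averaged 1.75 ± 1.63 TPM with vehicle against 4.30 ± 0.573 TPM with 25-HC (SD, n = 3 each). Batf2 averaged 0.697 ± 0.112 against 1.32 ± 0.184 TPM and overlapped after rescaling; like Sgk1 and Mrtfb below, it reached the mean of 1 TPM only through the treated libraries. Jdp2, a repressor that pairs with JUN, was the most abundant of the list, with 139.2, 10.7 and 208.7 TPM in vehicle libraries against 138.2, 137.1 and 132.9 TPM in treated ones. Vehicle 2 was its lowest library, as for 73.2% of tested genes.

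Of 28 other immediate early genes, 19 were tested, 17 had a positive difference, 5 separated upward and 1 downward (6 and 2 after rescaling). These are 89.5%, 26.3% and 5.26% of the tested genes of the list, against 75.4%, 22.6% and 8.1% of all tested genes, and after rescaling 31.6% and 10.5% against 18.7% and 17.9%. Klf2, a factor that holds macrophages quiescent, measured 4.86, 1.82 and 4.69 TPM in vehicle libraries against 19.2, 20.5 and 18.8 TPM in treated ones (5.14-fold, log2 difference 2.17, limma adjusted p = 0.39). Its distance between the groups was larger than the spread within either. Sgk1, a kinase, was at 0.847 ± 0.780 and 3.41 ± 0.501 TPM, and Klf6 at 6.42 ± 5.79 and 17.1 ± 0.685 TPM. Mcl1, a survival gene and the most abundant of the list, overlapped, at 123.4 ± 55.2 and 167.9 ± 5.03 TPM (SD, n = 3 each, vehicle first).

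Of 27 upstream kinases and promoter-bound factors, 26 were tested, 23 had a positive difference, 4 separated upward and 1 downward (3 and 2 after rescaling). The positive share was 88.5%, against 75.4% of all tested genes. Of the list's tested genes 15.4% thus separated upward and 3.85% downward, below the 22.6% and 8.1% of all tested genes, and 11.5% and 7.69% after rescaling, where all tested genes gave 18.7% and 17.9%. Mrtfa, a coactivator of SRF and the most abundant of the list, was the 1 below: it measured 338.0, 278.1 and 275.4 TPM in vehicle libraries against 210.0, 200.4 and 188.9 TPM in treated ones (log2 difference -0.57, limma adjusted p = 0.39). Vehicle libraries were even here, vehicle 2 included. Mrtfb, its relative, was at 0.617 ± 0.522 and 2.01 ± 0.351 TPM, and Mapk8, the kinase JNK1, at 4.63 ± 4.88 and 11.1 ± 0.817 TPM (SD, n = 3 each, vehicle first).

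Of 19 feedback regulators, 16 were tested, 13 had a positive difference, 2 separated upward and none downward (3 and 3 after rescaling). The positive, upward and downward shares were 81.2%, 12.5% and 0%, against 75.4%, 22.6% and 8.1% of all tested genes. After rescaling 18.8% separated each way, near the 18.7% and 17.9% of all tested genes. Nab1, which binds and represses EGR factors, measured 2.75, 0.97 and 5.30 TPM in vehicle libraries against 6.76, 7.55 and 7.2 TPM in treated ones. Spred1, an inhibitor of the RAS to ERK route, was at 13.0 ± 10.4 and 25.4 ± 0.388 TPM. The ERK phosphatase Dusp6 measured 8.74, 1.65 and 26.1 TPM in vehicle libraries against 26.45, 25.7 and 27.0 TPM in treated ones. It overlapped as deposited (log2 difference 1.63) and separated upward after rescaling (1.12). Dusp4 was at 57.2 ± 52.5 and 99.3 ± 7.23 TPM, with overlap. Of 16 genes known as AP-1 targets, 12 were tested, 10 had a positive difference, 5 separated upward and none downward (4 and 2 after rescaling). The positive, upward and downward shares of these targets were 83.3%, 41.7% and 0%, against 75.4%, 22.6% and 8.1% of all tested genes. After rescaling 33.3% separated upward and 16.7% downward, against 18.7% and 17.9%. Among them Plau, the urokinase, measured 54.2, 4.0 and 123.0 TPM in vehicle libraries against 130.4, 127.6 and 136.1 TPM in treated ones. Vegfa averaged 12.4 ± 11 and 30 ± 4.43 TPM, and Spp1, osteopontin, averaged 601.4 ± 464.4 and 1206 ± 9.82 TPM. Ccl3, a chemokine and the most abundant of the list, overlapped, at 2007 ± 1217 and 2924 ± 47.9 TPM (SD, n = 3 each, vehicle first).

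**Figure D5:**
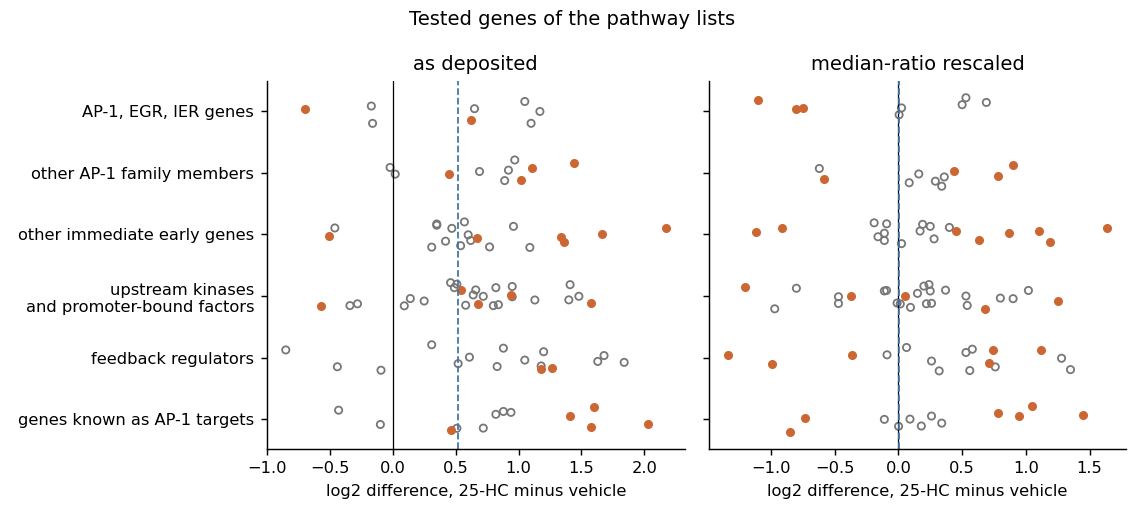
Log2 difference of 25-HC minus vehicle for each tested gene of the 10 genes and of 5 related lists, as deposited (left) and after median-ratio rescaling (right). Filled points separate between the groups, the dashed line is the median of all tested genes (0.52 and 0.0083), and the 3 filled points below 0 in the top row on the right are Egr2, Jund and Fosl2.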

How the data were processed

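RNA of 6 RAW264.7 libraries was measured. A TruSeq RNA kit was used per the labels' protocols. The submitters' processing notes name GRCm39, HISAT2, StringTie and RSEM without versions or order. TPM values were deposited by the authors as 1 matrix (total 1000000 each, 1000001 in 25-HC 2), which keeps no depth; 11 empty columns were ignored. Of identifiers sharing a symbol, the most abundant was kept. The test was limma 3.58.1 (R 4.3.3) on log2(TPM + 1) of the 12082 genes whose mean reached 1 TPM (variance trend, two-sided, Benjamini-Hochberg, threshold 0.05), all 6 libraries and no block. Log2 differences understate changes of low genes, and folds are ratios of mean TPM. Transcript lengths (GENCODE M21, another build, 92.1% of tested genes) served a loess correction per library (span 0.75, degree 2). The test was tried on simulated data with independent noise and the spread of the 25-HC libraries in both groups. The wider spread of the vehicle libraries was not simulated, so that trial does not speak for these data. Python 3.11.15 with pandas 2.3.3, scipy 1.17.1 and matplotlib 3.10.9 was used.

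The members, the lists, the tests and the settings were chosen with earlier results of these data known. All members are named, and of each other list the 3 tested genes with the smallest p and the 1 with the highest mean. Other settings were pseudocounts of 0.1 and 5, a minimum mean of 5 TPM or none, quantile normalization, median-ratio rescaling, the length correction, a replicate block, no variance trend, each library left out, and, added after seeing the data, vehicle 3 alone.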

Additional observations from a re-analysis of the deposited data

How the results depend on the processing

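Across 16 other settings, 117 of 127 values of single members kept their direction and side of the threshold. Part of this count was fixed in advance. Another filter on low values, the replicate block and no variance trend leave the log2 difference unchanged by construction, so its direction could not turn there. The direction turned without vehicle 2 for Fos (-7.9e-04, with up to 1.99 when another library was left out), Junb (-0.26, up to 1.96) and Ier3 (-0.37, up to 1.34), without vehicle 3 for Fosl2 (0.24, down to -0.55), without vehicle 1 for Jund (0.0043, down to -0.47), and against vehicle 3 alone for Fos (-0.48), Jun (-0.35), Junb (-0.61) and Ier3 (-0.73). Against vehicle 3 alone Fosl2 (-0.96), Junb and Ier3 also changed their side of the threshold, and no member did so in any other setting. That fit sets 1 vehicle library beside the treated ones, so it is not read as a test. The cause of these changes was not tested beyond which library was left out.

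Genes called higher were 1 as deposited, 0 with a pseudocount of 5, no filter, a mean of at least 5 TPM or the replicate block, 5 after quantile normalization, 16 after length correction, and 546 against vehicle 3 alone, a fit that lends this 1 library the spread of the treated ones. Genes called lower were 0 as deposited, 1 after median-ratio rescaling, 1 after quantile normalization, 3 after length correction and 765 against vehicle 3 alone. Leaving out 1 library gave 0 to 670 higher (670 without vehicle 3, 9 without vehicle 2) and 0 to 51 lower (51 without vehicle 3, 4 without vehicle 2). Members separated upward were 1 as deposited, 0 after median-ratio rescaling or quantile normalization, and 1 to 6 with 1 library left out (6 without vehicle 3, where 59.5% of all tested genes separated upward). Members separated downward were 1 as deposited, 3 after median-ratio rescaling, 3 after quantile normalization, 4 after length correction, 1 to 3 with 1 library left out (3 without vehicle 2) and 8 against vehicle 3 alone. The cause was not tested.

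The median log2 difference of the 10 members was 0.38 as deposited (0.63 over the 8 tested) and -0.20 without vehicle 2. Replicate numbers are shared between the groups, but same-numbered libraries did not deviate together (r of deviations across genes -0.0142, 0.0564 and 0.031), and with the replicate block no member was called and 0 genes were. Depth is unknown, so the precision of low genes such as Egr2 could not be given.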
